A study of Mus musculus with 8 samples.

Results

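Interferon-stimulated genes are the transcripts that cells raise when interferon, or a viral nucleic acid sensed inside the cell, switches on their antiviral programme. A list of 33 such mouse genes, given by symbol, was followed here, and all 33 were found among the 54427 genes of the deposited table. They were read in primary acinar cells of wild-type mouse pancreas, the enzyme-secreting cells of the gland, kept in HEPES buffer with serum. All 8 libraries carry the same injury, 1 µM cholecystokinin octapeptide for 6 h, a secretagogue that damages acinar cells at high concentration. The 4 libraries titled AP are the injury alone and the 4 titled AP_OCA add OCA, commonly obeticholic acid, which activates FXR, a nuclear receptor for bile acids. The treatment text gives 2.5 µM OCA in identical words for every library, so the reading that AP received none rests on the titles. Mouse age, sex and strain, and the animal or cell preparation behind each replicate, are not given in the sources used here, so p-values measure the spread between these libraries. No library without injury was analysed here, so these data give levels in injured cells and the OCA comparison, not an induction by the injury.

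Type I interferon binds a receptor whose kinases phosphorylate STAT proteins, STAT2 among them. With IRF9 these bind a DNA element, the interferon-stimulated response element, in the promoters of antiviral genes. Interferon gamma uses its own receptor, and many of the same genes can also be switched on directly by IRF3, IRF7 or IRF1 after RNA or DNA is sensed in the cytosol. Most nucleated cells can run this programme, those of the exocrine pancreas included, while immune cells hold many of its transcripts at rest.

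RefSeq promoter windows of the GRCm38.p6 build, which run from just before to just past a transcription start, were matched by symbol for 24 of the 33. The response element was searched as GAAA, any pair of bases and GAAA again, on both strands, and 13 of those 24 genes (54.2%) held at least 1 match, against 3.99% of 27025 genes with such windows and 3.79% of the 8328 tested genes among them. The gamma-activated site, searched as TTCNNNGAA, which reads the same on both strands, was found in 5 of 24 (20.8%) and in 9.55% of all. Matches of both kinds may share bases. A match is a description of the letters in the window and not a measured binding site. The stretches below carry the response element of 6 members whose values recur in the results, 5′ to 3′ along the gene, with each match in capitals and the flanking bases in lower case; a match on the other strand reads TTTC here.
Isg15 (chr4:156200855-156200916, minus strand): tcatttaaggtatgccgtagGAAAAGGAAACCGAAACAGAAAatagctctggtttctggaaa
Rsad2 (chr12:26456543-26456592, minus strand): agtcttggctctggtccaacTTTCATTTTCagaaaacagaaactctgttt
Ifit1 (chr19:34640765-34640833, plus strand): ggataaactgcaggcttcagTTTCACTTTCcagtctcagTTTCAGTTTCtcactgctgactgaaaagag
Ifit3 (chr19:34583353-34583436, plus strand): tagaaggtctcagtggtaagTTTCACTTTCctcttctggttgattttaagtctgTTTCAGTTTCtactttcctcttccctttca
Ifit3b (chr19:34607749-34607832, plus strand): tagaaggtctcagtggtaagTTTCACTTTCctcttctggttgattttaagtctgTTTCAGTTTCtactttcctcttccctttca
Oas3 (chr5:120777705-120777754, minus strand): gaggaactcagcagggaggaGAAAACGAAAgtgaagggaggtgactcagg
Isg15 held 3 overlapping matches in a row, Ifit1 held 2, and Rsad2 and Oas3 held 1 each. The stretches printed for Ifit3 and Ifit3b are letter for letter the same, though their first match lies at position -156 from the start in Ifit3 and at -188 in Ifit3b. Reads from such close copies can be split or dropped in counting, and how they were assigned is not given in the sources used here. Helz2, Cmpk2, Irf7, Irf9, Xaf1, Ifi44, Oasl1 and Oasl2 held neither set of letters in their windows.

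One library has to be set apart before any comparison. Pancreatic enzyme transcripts dominated all 8 libraries: 10 acinar markers summed to between 357431 and 396979 CPM in 7 libraries and to 348040 CPM in AP_OCA replicate 2. The most abundant enzymes carry that sum. Of the 10 markers, 4 lay more than 2-fold below every other library in AP_OCA replicate 2, and 0 more than 2-fold above. They were Amy2b (607 CPM against 6355 to 10332), Ptf1a (1.12 against 17.4 to 34.5), Bhlha15 (5.05 against 63.1 to 120) and Rbpjl (5.44 against 71.6 to 107). CPM here means the authors' normalised value, taken off the log scale and scaled to the usual common total per library. In AP_OCA replicate 2 the sum of 14 lymphocyte markers was 3697 CPM against 3.67 to 39.8 in the others, with Cd3e, Cd3g and Cd2 at 0 in all 7, and the sum of 16 macrophage and dendritic cell markers was 11555 CPM against 159 to 259.8. Its 4 ductal markers summed to 7.91 CPM against 104 to 238 and its 4 islet markers to 8.53 against 459.9 to 1977. Immune cells carry interferon-stimulated transcripts of their own, so the values of this library are given apart from the others throughout. Total read counts per library are not given in the sources used here. The smallest values rise in uneven steps, and 1 CPM lay 9 to 14 steps above 0 in the 7 libraries and 65 steps above 0 in AP_OCA replicate 2. The third step above 0 was 0.206 to 0.313 CPM in the 7 and 0.000455 CPM in AP_OCA replicate 2. After the authors' normalisation a step need not be a whole count, so these steps set no detection limit.

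Every one of the 33 genes was measurable in these injured acinar preparations, and 1 of them differed between AP_OCA and AP past the test. The preparations also held transcripts of other cell types, and which cells gave the member values was not tested. Leaving AP_OCA replicate 2 out, the interferon-stimulated genes had a median log2 difference of -0.04 between AP_OCA and AP, beside -0.0001 for all 10894 genes tested. Helz2 fell, the other 32 did not pass, 15 of the 33 values lay above 0 and 18 below. The lowest value was -1.21 and the highest 0.79. Of all tested genes 2.44% passed in that comparison (0.854% higher and 1.59% lower) and 50% lay above 0, so the share of members passing, 1 of 33, is near the background. With all 8 libraries none of 33 passed, as none of 11311 tested genes did (0%; smallest adjusted p among the members 0.2596 by limma). There 4 members had an unadjusted p under 0.05, 3 higher and 1 lower, against 16.2% of all genes tested (7.31% higher and 8.87% lower). The member median was then 0.21, against -0.01 for all genes, and 26 of 33 values lay above 0 against 49.1% of all.

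**Figure D1:**
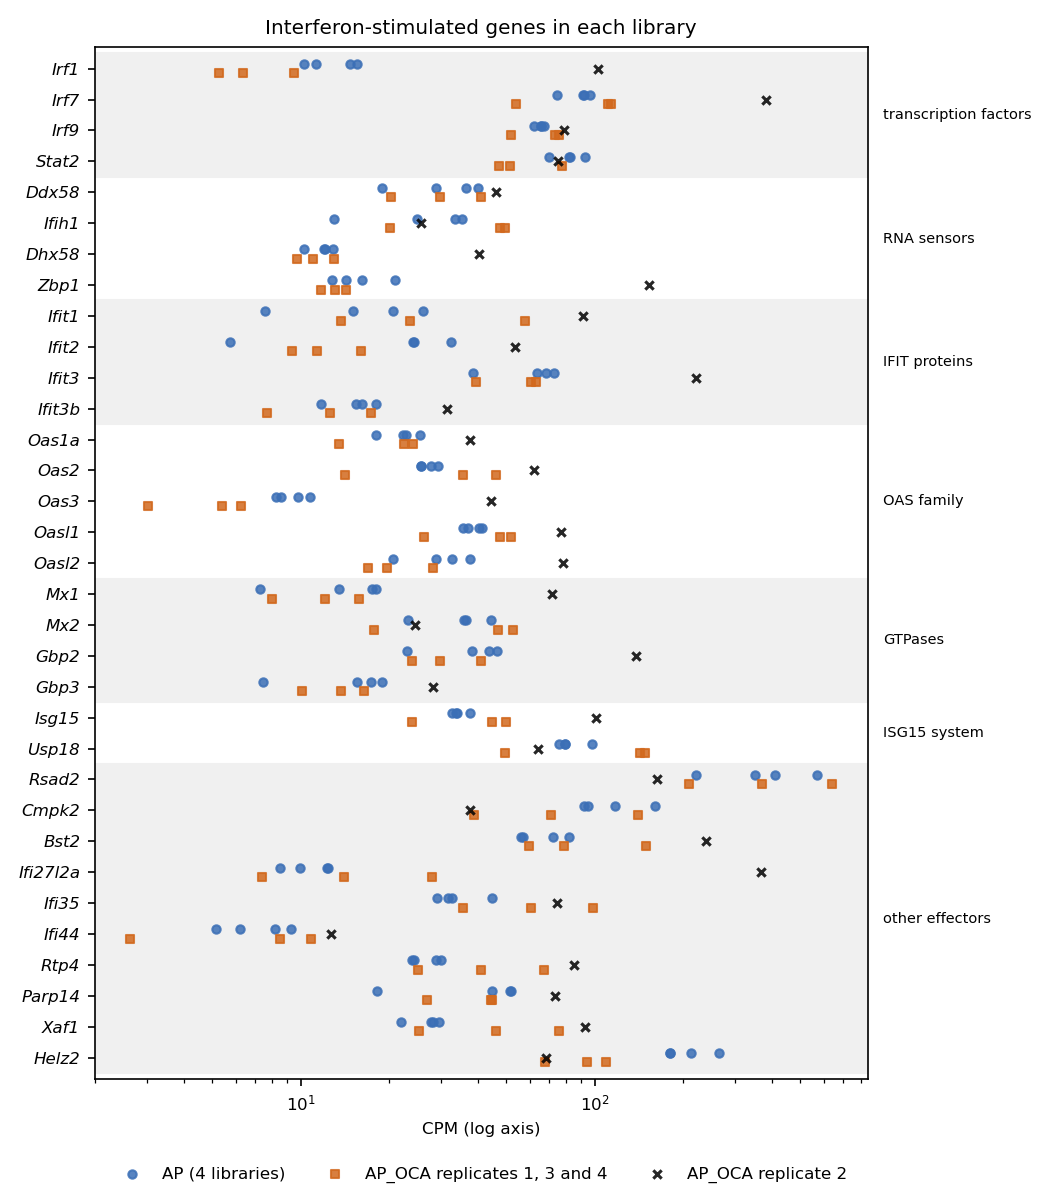
CPM (log axis) of each of the 33 interferon-stimulated genes in every library, in bands by role; circles are the 4 AP libraries, squares are AP_OCA replicates 1, 3 and 4, and crosses are AP_OCA replicate 2. Circles and squares overlap in 30 rows and separate in those of Irf1, Oas3 and Helz2, while the cross lies to the right of all other symbols in 25 rows.

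The levels themselves spanned a wide range. Divided by the length of the longest annotated transcript, the mean AP level ran from 1.77 CPM per kb for Ifi44 to 92.4 CPM per kb for Rsad2. Bst2 (84.1 CPM per kb), Usp18 (46.7) and Isg15 (45.6) followed Rsad2. Whether the deposited values were already scaled by length is not given in the sources used here. If they were, this division would count length again. By CPM not divided by length, Rsad2 ranked 116 and Helz2 ranked 213 by AP mean among all genes of the table. At the other end of the 33 genes, Oas3 ranked 4901 and Ifi44 ranked 5771. Summed over the 33 genes, the AP libraries held 2000.1, 1783, 1395 and 1702 CPM, AP_OCA replicates 1, 3 and 4 held 1034, 2139 and 1910.2 CPM, and AP_OCA replicate 2 held 3236 CPM. The AP_OCA libraries thus lay on both sides of the AP libraries, with replicate 1 below all of them and replicates 2 and 3 above. In RNA from many cells, fewer expressing cells and less RNA per cell cannot be told apart.

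None of the 4 transcription factors passed, and Irf1 came nearest. Irf9, the DNA-binding part of the STAT complex, was the steadiest of the 4 in AP, at 65.8, 67.0, 65.6 and 62.0 CPM in AP replicates 1 to 4, 51.7, 72.9 and 75.5 CPM in AP_OCA replicates 1, 3 and 4, and 78.7 CPM in AP_OCA replicate 2. Irf7, which amplifies interferon production, stood at 95.9, 91.5, 91.4 and 74.0 CPM in AP, 54.1, 113 and 111 in AP_OCA replicates 1, 3 and 4, and 382 in AP_OCA replicate 2. For both genes AP_OCA replicate 1 lay below all AP libraries and AP_OCA replicates 3 and 4 above them, so the groups overlapped. Stat2, which carries the signal of the type I receptor, stood at 92.5, 81.4, 69.7 and 82.0 CPM in AP, 47.1, 77.3 and 51.3 in AP_OCA replicates 1, 3 and 4, and 75.1 in AP_OCA replicate 2. Without AP_OCA replicate 2 its log2 difference was -0.50 ± 0.20 (SE; adjusted p = 0.137 by limma), and AP_OCA replicate 3 lay inside the AP range. Irf1, which interferon gamma and NF-kB both switch on, stood at 15.6, 11.3, 14.7 and 10.2 CPM in AP, 5.25, 6.37 and 9.49 in AP_OCA replicates 1, 3 and 4, and 102 in AP_OCA replicate 2. AP_OCA replicates 1, 3 and 4 were under the whole AP range, and AP_OCA replicate 2 was over it. The difference without AP_OCA replicate 2 was -0.81 ± 0.24 on the log2 scale (SE) and did not pass (adjusted p = 0.0683 by limma). Mean levels were 12.9 ± 2.59 CPM (AP, SD, n = 4) and 7.04 ± 2.20 CPM (AP_OCA, n = 3). Leaving AP_OCA replicate 4 out as well, Irf1 passed (-1.02, adjusted p = 0.0454 by limma), in a fit where 119 of 10844 genes did. With all 8 libraries the value was 0.12 ± 0.79. Irf1 shares 907 bases with the gene Gm17334 on the other strand, and whether the counting used strand is not given in the sources used here.

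The cytosolic sensors of foreign nucleic acid did not differ past the test. Ddx58, which encodes the RNA sensor RIG-I, stood at 40.1, 28.9, 18.9 and 36.3 CPM in AP, 20.2, 40.9 and 29.6 in AP_OCA replicates 1, 3 and 4, and 46.0 in AP_OCA replicate 2. Ifih1, a sensor of long double-stranded RNA, stood at 35.3, 33.5, 12.9 and 24.8 CPM in AP, 20.0, 49.3 and 47.6 in AP_OCA replicates 1, 3 and 4, and 25.7 in AP_OCA replicate 2. AP replicate 3 was the lowest of the 7 libraries for both. Dhx58, a relative of these sensors that lacks their signalling domain, stood at 12.8, 10.3, 12.1 and 12.0 CPM in AP, 9.67, 13.0 and 11.0 in AP_OCA replicates 1, 3 and 4, and 40.2 in AP_OCA replicate 2. Zbp1, which binds Z-form nucleic acid and can start necroptosis, stood at 20.9, 16.2, 12.7 and 14.2 CPM in AP, 11.7, 14.2 and 13.1 in AP_OCA replicates 1, 3 and 4, and 153 in AP_OCA replicate 2. These 2 were close to level among the 7 libraries and higher in AP_OCA replicate 2, where Zbp1 stood 7.32-fold above the highest other library. Without AP_OCA replicate 2 the log2 differences of the 4 sensors ran from -0.26 to 0.52, with a smallest adjusted p of 0.426 by limma.

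The IFIT genes, whose proteins bind foreign RNA ends and block its translation, sit side by side on chromosome 19, and none of the 4 passed. In mm10 they run from Ifit2 (34550694 to 34576419) through Ifit3 (34583531 to 34588731) and Ifit3b (34607970 to 34613401) to Ifit1 (34640871 to 34650009). Ifit1 stood at 20.6, 26.0, 7.58 and 15.0 CPM in AP, 13.6, 23.5 and 57.9 in AP_OCA replicates 1, 3 and 4, and 91.1 in AP_OCA replicate 2. Ifit2 stood at 24.1, 32.4, 5.73 and 24.2 CPM in AP, 9.35, 16.1 and 11.3 in AP_OCA replicates 1, 3 and 4, and 53.4 in AP_OCA replicate 2. In AP_OCA replicate 4, Ifit1 was the highest of the 7 libraries while Ifit2 lay below 3 of the 4 AP libraries. In AP_OCA replicate 2 all 4 genes lay above every other library. Ifit3 stood at 68.2, 72.5, 38.6 and 63.3 CPM in AP, 39.4, 60.8 and 63.0 in AP_OCA replicates 1, 3 and 4, and 221 in AP_OCA replicate 2. Ifit3b stood at 15.4, 18.0, 11.7 and 16.1 CPM in AP, 7.65, 17.4 and 12.6 in AP_OCA replicates 1, 3 and 4, and 31.3 in AP_OCA replicate 2. AP replicate 3 had the lowest Ifit1, Ifit2 and Ifit3 of the 7 libraries, and Ifit1 spanned 7.64-fold between its lowest and highest of these, the widest range of the 33 genes. The 4 log2 differences without AP_OCA replicate 2 ran from -0.58 to 0.72 (smallest adjusted p = 0.419 by limma).

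OAS enzymes make oligoadenylates that activate RNase L, which cuts RNA in infected cells, and the OAS-like genes Oasl1 and Oasl2 were listed with them. Oas3, the largest of these enzymes, stood at 10.8, 9.80, 8.57 and 8.21 CPM in AP, 3.03, 6.26 and 5.39 in AP_OCA replicates 1, 3 and 4, and 44.2 in AP_OCA replicate 2. As for Irf1, AP_OCA replicates 1, 3 and 4 were under the AP range and AP_OCA replicate 2 over it. Without that library the log2 difference was -0.85 ± 0.24 (SE), with mean levels of 9.33 ± 1.17 CPM (AP, SD, n = 4) and 4.89 ± 1.67 CPM (AP_OCA, n = 3), and did not pass (adjusted p = 0.0646 by limma); it was -0.49 with the length and GC trend removed (adjusted p = 0.292). With quality weights per library Oas3 passed (-0.74, adjusted p = 0.0211 by limma), as did Irf1 (-0.88, adjusted p = 0.00535). Under those weights 4 of the 33 members passed, beside 1675 of all 10894 tested genes. With all 8 libraries the Oas3 value was -0.10 ± 0.65. Its neighbours on chromosome 5 did not share this. Oas2 stood at 27.6, 25.6, 25.5 and 29.2 CPM in AP, 14.1, 35.7 and 46.0 in AP_OCA replicates 1, 3 and 4, and 61.9 in AP_OCA replicate 2. Oas1a stood at 22.3, 18.1, 22.7 and 25.4 CPM in AP, 13.5, 22.4 and 24.0 in AP_OCA replicates 1, 3 and 4, and 37.6 in AP_OCA replicate 2. For Oas2 the AP libraries were close together, while AP_OCA replicate 1 lay below them and replicates 3 and 4 above. Oasl1, which in mice restrains Irf7, stood at 40.3, 41.4, 35.7 and 36.9 CPM in AP, 26.1, 51.7 and 47.6 in AP_OCA replicates 1, 3 and 4, and 76.8 in AP_OCA replicate 2. Oasl2 stood at 37.7, 28.9, 20.5 and 32.7 CPM in AP, 19.6, 28.1 and 17.0 in AP_OCA replicates 1, 3 and 4, and 78.1 in AP_OCA replicate 2. In Oasl1, as in Oas2, AP_OCA replicate 1 lay below the AP range and replicates 3 and 4 above it, and Oasl2 had 2 AP_OCA libraries below the AP range and 1 inside it; neither passed.

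The interferon-induced GTPases, which trap viral particles or coat pathogen vacuoles, overlapped between the groups in every case. Mx1 stood at 17.5, 13.5, 7.25 and 17.9 CPM in AP, 12.0, 15.7 and 7.99 in AP_OCA replicates 1, 3 and 4, and 71.5 in AP_OCA replicate 2. Mx2 stood at 36.4, 44.4, 23.2 and 35.9 CPM in AP, 17.7, 52.6 and 46.9 in AP_OCA replicates 1, 3 and 4, and 24.4 in AP_OCA replicate 2. These neighbours on chromosome 16 differed in AP_OCA replicate 2, where Mx1 was 3.98-fold above the highest other library and Mx2 lay inside the range of the others. Gbp2 stood at 46.3, 38.1, 22.9 and 43.7 CPM in AP, 23.8, 41.0 and 29.6 in AP_OCA replicates 1, 3 and 4, and 138 in AP_OCA replicate 2. Gbp3 stood at 17.3, 18.9, 7.42 and 15.5 CPM in AP, 10.1, 16.4 and 13.7 in AP_OCA replicates 1, 3 and 4, and 28.0 in AP_OCA replicate 2. AP replicate 3 gave the lowest Mx1, Gbp2 and Gbp3 of the 7 libraries, and the log2 differences of the 4 GTPases without AP_OCA replicate 2 ran from -0.24 to 0.05 (smallest adjusted p = 0.568 by limma).

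The ISG15 system, a ubiquitin-like tag and the protease that removes it, was tight in AP and wide in AP_OCA. Isg15, the tag, stood at 33.6, 37.6, 32.7 and 34.0 CPM in AP, 23.9, 44.7 and 49.7 in AP_OCA replicates 1, 3 and 4, and 101 in AP_OCA replicate 2. Usp18, which removes the tag and also shuts the type I receptor, stood at 79.4, 75.3, 97.4 and 79.0 CPM in AP, 49.4, 142 and 148 in AP_OCA replicates 1, 3 and 4, and 63.8 in AP_OCA replicate 2. For both, AP_OCA replicate 1 was below all AP libraries and AP_OCA replicates 3 and 4 above them. The mean of Usp18 was 82.8 ± 9.91 CPM in AP (SD, n = 4) and 113 ± 55.2 in AP_OCA (n = 3), and neither gene passed (smallest adjusted p = 0.5997 by limma). Leaving AP_OCA replicate 1 out as well, Usp18 had a log2 difference of 0.81 and passed (adjusted p = 0.0223 by limma), so its call turned on that library. Calls rose over all genes too in that fit, with 973 of 10902 genes passing against 266 of 10894 with replicate 1 kept.

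Among the other effectors, Helz2 fell. Helz2, a helicase and co-activator of nuclear receptors that interferon induces, stood at 181, 212, 180.0 and 265 CPM in AP, 94.3, 109 and 67.5 in AP_OCA replicates 1, 3 and 4, and 68.0 in AP_OCA replicate 2. Every AP_OCA library, replicate 2 included, was under the AP range, with AP means of 209 ± 39.9 CPM (SD, n = 4) and AP_OCA means of 90.3 ± 21.2 (n = 3) or 84.7 ± 20.6 (n = 4). Without AP_OCA replicate 2 it fell by 1.21 ± 0.20 on the log2 scale (SE; adjusted p = 0.0241 by limma), and with all 8 libraries the value was -1.31 ± 0.26 and did not pass (adjusted p = 0.2596). Without AP_OCA replicate 2, groups did not overlap in 3 of 33 members (Irf1, Oas3 and Helz2), all lower in AP_OCA, beside 12.1% of tested genes lower and 11.1% higher without overlap. With all 8 libraries Helz2 was the only such member, beside 8.57% of genes lower and 6.75% higher. The call on Helz2 ended when any AP library was left out (adjusted p = 0.0718, 0.0659, 0.0577 and 0.0849 without AP replicates 1 to 4, with values of -1.28, -1.20, -1.28 and -1.09), and held without each AP_OCA library. It also ended without a mean-variance trend (adjusted p = 0.0644) and with no filter on low values (0.182). With the trend on transcript length and GC content removed from each library the value was -0.79 and passed (adjusted p = 0.0377). Helz2 lies on chromosome 2 of mm10 (181227615 to 181242027, minus strand), its longest transcript has 10109 bases, and no other annotated gene overlaps it. In the same 7 libraries the 6 endothelial markers summed to 40.8 to 52.5 CPM in AP and 20.0 to 34.4 in AP_OCA, and the 6 stellate cell markers to 168 to 229 and 104 to 158, with no marker at 0. The sum of the 4 ductal markers separated the other way, at 104 to 174 in AP and 184 to 238 in AP_OCA. Krt19 made up most of it, at 83.5 to 144 and 156 to 198. Krt7 also had the higher mean in AP_OCA, while Sox9 (means of 12.8 and 8.97) and Cftr (0.470 and 0.191) had the lower. Single markers also went against the other 2 sums: Emcn (means of 1.78 and 3.41) among the endothelial and Dcn (33.5 and 44.1) among the stellate markers. The 6 neutrophil markers summed to 30.6 to 63.3 and 12.7 to 70.1, and 1 of them, Csf3r, fell by 1.58 (adjusted p = 0.0241 by limma). Among the stellate markers Col1a1 also passed, lower by 1.38 (adjusted p = 0.0488 by limma). Of all tested genes 1.59% passed in the lower direction. The part of these cell types in the result was not tested. AP_OCA replicate 2, where Helz2 was as low as in AP_OCA replicate 4, had 109 CPM of the endothelial and 444 CPM of the stellate markers.

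**Figure D2:**
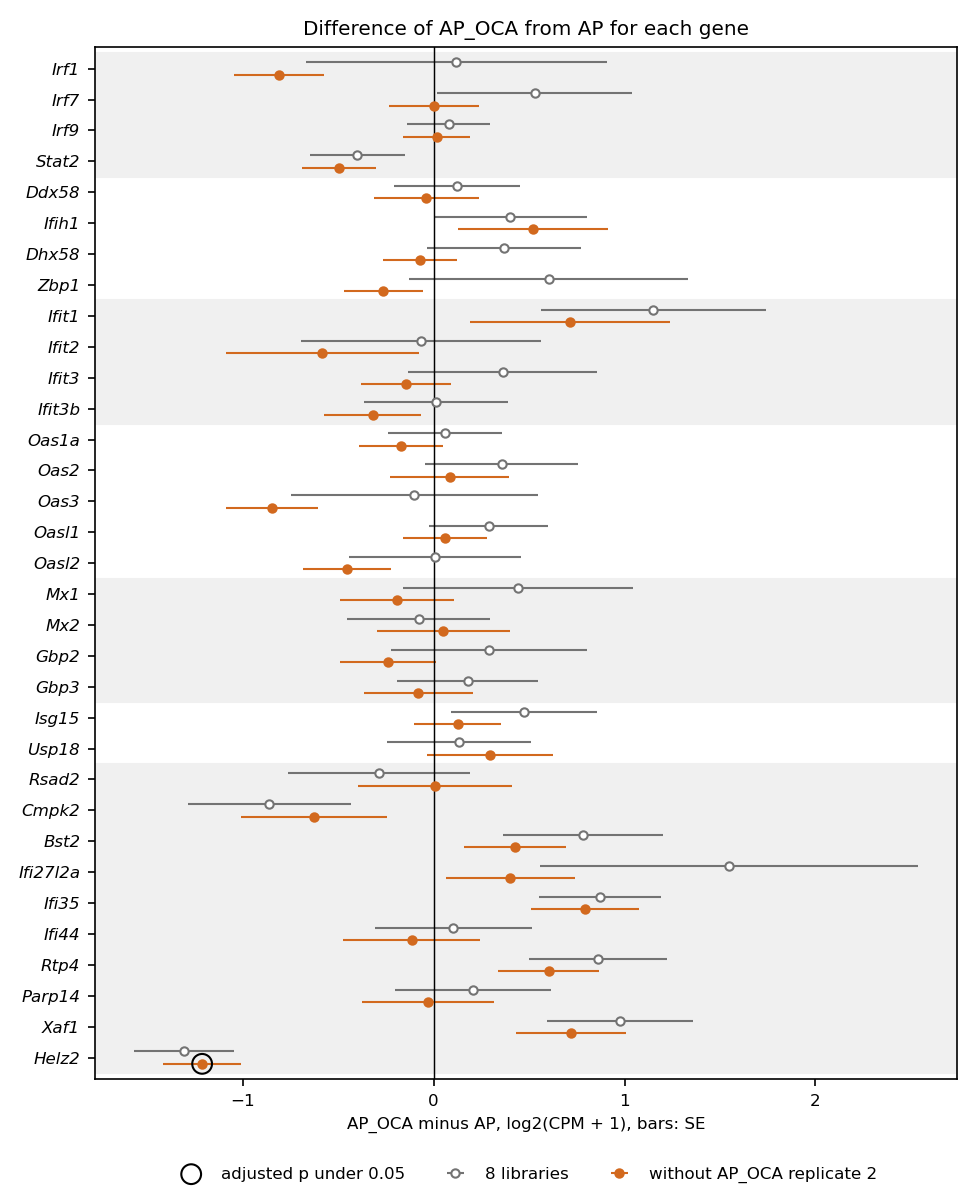
Difference of AP_OCA from AP on the log2(CPM + 1) scale for each of the 33 genes, with bars of 1 SE; open grey circles use all 8 libraries, filled circles leave AP_OCA replicate 2 out, and a ring marks an adjusted p under 0.05. Helz2 carries the only ring, at -1.21, and the SE of Ifi27l2a, Irf1 and Zbp1 is far wider with all 8 libraries than without AP_OCA replicate 2.

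Rsad2 and Cmpk2 are neighbours on chromosome 12 that are read away from each other, and their products both act on nucleotides: viperin makes a chain-terminating nucleotide from the CTP pool that the mitochondrial kinase Cmpk2 can feed. Rsad2 stood at 569, 409, 221 and 349 CPM in AP, 209, 642 and 369.9 in AP_OCA replicates 1, 3 and 4, and 162 in AP_OCA replicate 2. Cmpk2 stood at 160.3, 92.1, 117 and 94.8 CPM in AP, 38.9, 139.8 and 70.8 in AP_OCA replicates 1, 3 and 4, and 37.7 in AP_OCA replicate 2. Both were lowest of all 8 libraries in AP_OCA replicate 2 and next lowest in AP_OCA replicate 1. Rsad2 was higher in AP_OCA replicate 3 than in any AP library, and neither gene passed in either comparison.

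Ifi35, Xaf1 and Rtp4 were the 3 members with an unadjusted p under 0.05 in the higher direction, in both comparisons. Ifi35, a binding partner of the interferon-induced protein Nmi, stood at 29.1, 32.6, 44.5 and 31.6 CPM in AP, 35.6, 60.4 and 98.3 in AP_OCA replicates 1, 3 and 4, and 74.4 in AP_OCA replicate 2. Xaf1, which binds the apoptosis inhibitor XIAP, stood at 29.6, 27.8, 21.9 and 28.2 CPM in AP, 25.2, 46.1 and 75.7 in AP_OCA replicates 1, 3 and 4, and 92.3 in AP_OCA replicate 2. Rtp4, a membrane-associated protein induced by type I interferon, stood at 24.3, 30.1, 28.8 and 23.9 CPM in AP, 24.9, 40.9 and 67.1 in AP_OCA replicates 1, 3 and 4, and 84.9 in AP_OCA replicate 2. In all 3 genes AP_OCA replicate 1 fell inside the AP range, replicate 3 lay above it and replicate 4 was the highest of the 7 libraries. Without AP_OCA replicate 2 the log2 differences were 0.79 ± 0.28 for Ifi35 (SE; adjusted p = 0.113 by limma), 0.72 ± 0.29 for Xaf1 (adjusted p = 0.147) and 0.60 ± 0.26 for Rtp4 (adjusted p = 0.173). Unadjusted p-values under 0.05 were found for 11.8% of genes in the higher and 13.9% in the lower direction, against 3 and 4 of 33 members. With quality weights Ifi35 passed (0.78, adjusted p = 0.00972 by limma), in a fit where 1675 of 10894 genes did. Leaving AP_OCA replicate 1 out as well, all 3 passed, at 1.16, 1.12 and 0.95 (adjusted p = 0.0199, 0.0199 and 0.0255 by limma). In that fit 973 of 10902 genes passed, 405 of them higher, against 266 of 10894 with replicate 1 kept. Rtp4 overlaps Masp1 on the other strand and Gm45338 on its own, and Ifi35 overlaps the antisense gene Gm11626, so reads of these genes may not be told apart.

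The remaining effectors overlapped between the groups. Bst2, which tethers budding virus to the cell surface, stood at 57.1, 71.9, 81.4 and 56.0 CPM in AP, 59.8, 78.5 and 149 in AP_OCA replicates 1, 3 and 4, and 239 in AP_OCA replicate 2. Ifi27l2a stood at 12.3, 8.51, 12.4 and 9.90 CPM in AP, 14.1, 7.40 and 27.9 in AP_OCA replicates 1, 3 and 4, and 367 in AP_OCA replicate 2. Both were highest of the 7 in AP_OCA replicate 4 and higher again in AP_OCA replicate 2. Parp14, an ADP-ribosyltransferase, stood at 51.7, 51.3, 18.1 and 44.6 CPM in AP, 26.8, 44.3 and 44.6 in AP_OCA replicates 1, 3 and 4, and 73.2 in AP_OCA replicate 2. Ifi44 stood at 9.26, 8.14, 5.16 and 6.23 CPM in AP, 2.62, 8.51 and 10.9 in AP_OCA replicates 1, 3 and 4, and 12.6 in AP_OCA replicate 2. AP replicate 3 was lowest for Parp14 and AP_OCA replicate 1 was lowest for Ifi44. None of these 4 passed.

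The members were lowest or highest in some of the 7 libraries more often than in others. AP_OCA replicate 1 had the lowest value of 17 of the 33 genes, while it was the lowest library for 6.82% of all 10894 tested genes. It was highest for none, against 9.54%. AP replicate 3 was lowest for 10 of 33, against 20.7% of all genes, and was highest for none, against 24%. AP_OCA replicate 4 was highest for 11 of 33, against 26.5% of all genes, and lowest for 2, against 31%. AP_OCA replicate 3 was highest for 7, against 10.5%, and lowest for 1, against 9%. AP replicates 1, 2 and 4 were highest for 8, 4 and 3 members, against 10.5%, 7.81% and 11.1% of genes, and lowest for 1, 0 and 2, against 12.2%, 8.91% and 11.3%. The median deviation of the 33 genes from their 7-library means was -0.52 in AP_OCA replicate 1 and 0.27 in AP_OCA replicate 3 on the log2 scale, where all tested genes had 0.02 and 0.01. Without AP_OCA replicate 1 as well, the member median between AP_OCA and AP was 0.21, and without AP replicate 3 it was -0.24. The genes that were lowest in AP replicate 3 included Ddx58, Ifih1, Ifit1, Ifit2, Ifit3, Mx1, Gbp2, Gbp3, Parp14 and Xaf1, and those lowest in AP_OCA replicate 1 included Irf7, Irf9, Stat2, Oas2, Isg15, Usp18 and Rsad2.

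**Figure D3:**
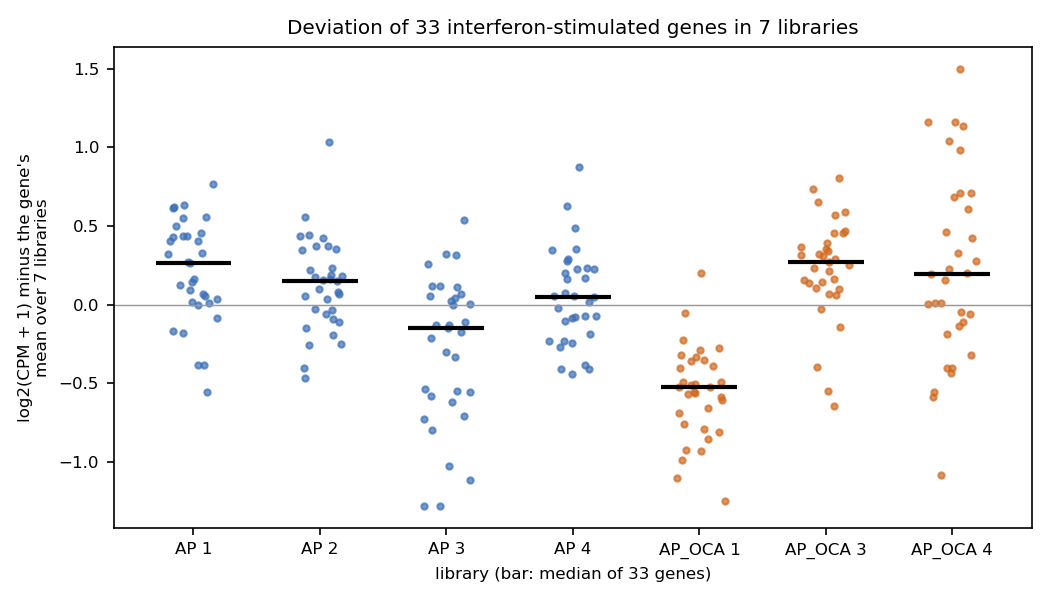
Deviation of each of the 33 genes from its own mean over 7 libraries, in log2(CPM + 1), for the AP libraries (blue) and AP_OCA replicates 1, 3 and 4 (orange), with the median as a bar. The bar of AP_OCA replicate 1 lies at -0.52 and those of AP_OCA replicates 3 and 4 at 0.27 and 0.20, so the AP_OCA libraries stand apart from each other more than the 4 AP libraries, which run from -0.15 to 0.26.

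AP_OCA replicate 2 held more of most interferon-stimulated transcripts, with exceptions among the most abundant. It lay above all other libraries for 25 of 33 members, against 32.5% of 11311 genes, and more than 2-fold above for 11 of 33, against 13.8%. At margins of 1.5-fold and 4-fold, added after the values were seen, 15 and 4 members lay above, against 19.8% and 6.6% of genes. It lay below all others for Rsad2 and Cmpk2, against 36.9% of genes, and more than 2-fold below for none, against 20.4%. None lay below by 1.5-fold or by 4-fold, against 26.6% and 10.7%. Ifi27l2a was 13.2-fold, Zbp1 7.32-fold, Irf1 6.56-fold and Oas3 4.11-fold above the highest other library. Helz2 was at 0.378 and Usp18 at 0.804 of the median of the other 7. In the same library Siglech, a marker of plasmacytoid dendritic cells, stood at 6.68 CPM against 0 to 0.304. The part of immune cells in these values was not tested.

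**Figure D4:**
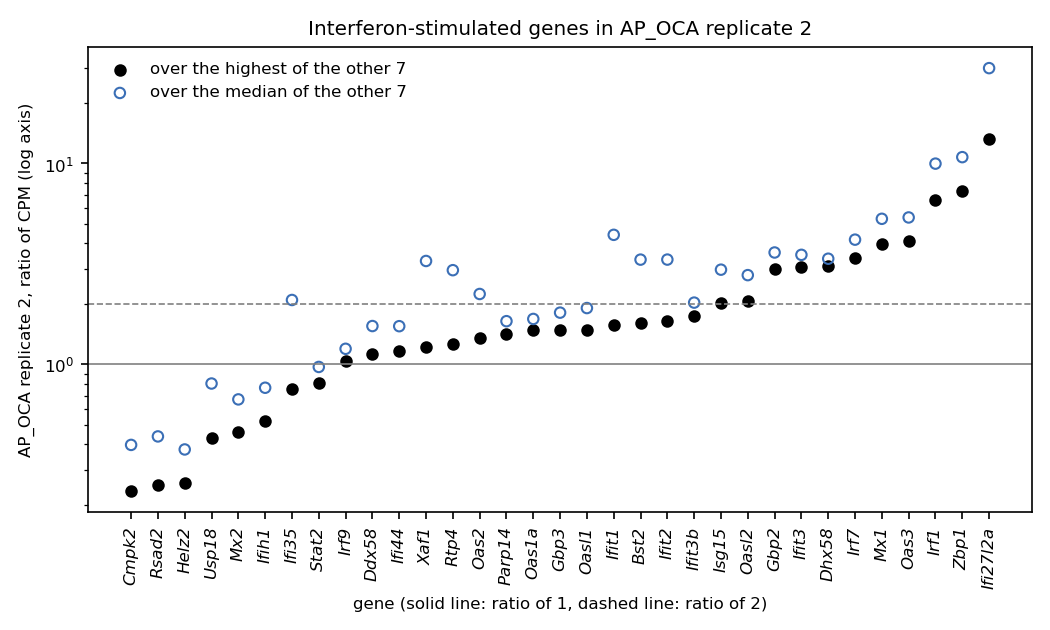
Ratio of the CPM value in AP_OCA replicate 2 to the highest (filled) and to the median (open) of the other 7 libraries, on a log axis, for the 33 genes in rising order. Filled points run from 0.235 for Cmpk2 to 13.2 for Ifi27l2a, and 11 lie above the dashed line at 2.

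Upstream of these genes, most interferon genes were listed at 0, and their receptors had values above 0. Of 19 interferon genes, 17 were listed at 0 in all 7 libraries and 14 in all 8. Ifng, the gamma interferon, was listed at 0.206 CPM in AP replicate 1, at 0.640 CPM in AP_OCA replicate 2 and at 0 elsewhere, and Ifnz at 0.0272 CPM in AP replicate 2 and AP_OCA replicate 1. In the 7 libraries these values lie at or under the third step above 0. A listed 0 need not mean a gene without transcripts: Trex1, a widely expressed nuclease, was also listed at 0 in all 8 libraries. No receptor chain passed. Ifnar1 had 7.60 ± 0.599 CPM in AP (SD, n = 4) and 7.03 ± 1.70 in AP_OCA (n = 3, without AP_OCA replicate 2), Ifnar2 7.80 ± 0.956 and 6.41 ± 1.29. Ifngr1 had 16.7 ± 3.14 and 12.6 ± 0.921 CPM and Ifngr2 9.85 ± 1.20 and 8.80 ± 0.602 in the same order. Il10rb, a chain of the lambda interferon receptor, had 9.66 ± 2.10 and 8.53 ± 1.88 CPM. Ifnlr1, the other chain of that receptor, differed most and was added after its values were seen: it stood at 9.26, 7.40, 11.5 and 10.5 CPM in AP, 6.30, 6.16 and 3.44 in AP_OCA replicates 1, 3 and 4, and 0.501 in AP_OCA replicate 2. Every AP_OCA value was under the AP range, and the log2 difference without AP_OCA replicate 2 was -0.78 ± 0.24 (SE; adjusted p = 0.0796 by limma).

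Of the 15 genes of the receptor and JAK-STAT list, 1 fell, 1 rose and 13 did not pass without AP_OCA replicate 2, with a median log2 difference of -0.16; of all tested genes 1.59% fell, 0.854% rose and the median was -0.0001. Socs3, a feedback inhibitor of cytokine receptors that STAT3 induces, stood at 106, 90.2, 129.7 and 88.5 CPM in AP, 48.9, 57.7 and 33.3 in AP_OCA replicates 1, 3 and 4, and 116 in AP_OCA replicate 2. It fell by 1.15 ± 0.21 on the log2 scale (SE; adjusted p = 0.0267 by limma). Ptpn2, a phosphatase that acts on JAK kinases, stood at 10.1, 8.95, 6.72 and 9.80 CPM in AP, 17.4, 19.7 and 16.3 in AP_OCA replicates 1, 3 and 4, and 14.5 in AP_OCA replicate 2. It rose by 0.94 ± 0.20 (adjusted p = 0.0401), with all 4 AP_OCA libraries above every AP library. Stat3, the most abundant gene of that list by mean CPM over the 7 libraries, had 102 ± 15.8 CPM in AP and 74.5 ± 10.2 in AP_OCA and did not pass (adjusted p = 0.145). Among 17 tested genes of nucleic acid sensing and IRF activation, Adar, which edits double-stranded RNA, fell by 0.80 ± 0.19 (adjusted p = 0.0450) and 16 did not pass (median -0.20), beside the same 2.44% of all genes passing. Adar stood at 59.5, 52.6, 60.1 and 62.7 CPM in AP, 26.5, 42.3 and 32.5 in AP_OCA replicates 1, 3 and 4, and 33.3 in AP_OCA replicate 2, so AP_OCA was under the AP range throughout. Trim25, the most abundant of that list by the same mean, had 138 ± 8.66 CPM in AP and 121 ± 26.9 in AP_OCA. None of these 3 calls held when AP replicate 1, 2, 3 or 4 was left out, nor without AP_OCA replicate 3; Adar was also lost without AP_OCA replicate 1 (adjusted p = 0.0522) and without AP_OCA replicate 4 (0.0579). Over these 7 leave-outs the log2 values ran from -1.32 to -0.93 for Socs3, from 0.82 to 1.00 for Ptpn2 and from -0.97 to -0.65 for Adar. The calls also ended without a mean-variance trend (adjusted p = 0.0673, 0.0683 and 0.0868 for Socs3, Ptpn2 and Adar by limma) and with no filter on low values (0.182 for each). Of the 3, Adar alone was also lost on the deposited log2 values (adjusted p = 0.0551) and with a pseudocount of 0.1 CPM (0.0506). With all 8 libraries none of the 3 passed (adjusted p = 0.311 for Socs3 and 0.2596 for Ptpn2 and Adar). With the length and GC trend removed Ptpn2 (0.53, adjusted p = 0.125) and Adar (-0.45, adjusted p = 0.162) did not pass.

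Neither of the wider sets of interferon-responsive genes held a call. Of 27 tested genes of the interferon gamma set, GTPases and class I antigen presentation, none passed, against 2.44% of all genes, and 8 lay above 0 (median -0.34), against 50% of all genes (median -0.0001). H2-D1, a class I heavy chain, had 264 ± 9.24 CPM in AP (SD, n = 4) and 191 ± 32.9 in AP_OCA (n = 3), and H2-K1, another, 225 ± 22.0 and 190.5 ± 26.6. In AP_OCA replicate 2 this set summed to 15719 CPM against 933 to 1261 in the other 7. Of 41 other interferon-stimulated genes tested (Eif2ak2 also counts among the sensing genes), none passed and 21 lay above 0 (median 0.01). Ly6e stood at 264 to 351 CPM in the 7 libraries, and Ifitm3, which blocks viral entry, at 184 to 240 CPM in AP and 193, 305 and 382 in AP_OCA replicates 1, 3 and 4.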

How the data were processed

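Gene expression was measured in 8 RNA-seq libraries of primary mouse acinar cells, 4 titled AP and 4 titled AP_OCA, grouped by title. The authors deposited 1 table of log2 values on the mm10 build, per the submitters' processing notes; the aligner, the counting tool, the annotation and the normalisation are not given in the sources used here. Over the whole table the lowest value is -6.64, as a 0 with an offset of 0.01 would give, and the highest is 20.57. Ctrb1 stood at 116519 to 116526 CPM in all 8 libraries, as quantile-normalised values could. Here the offset was removed and each library scaled to a common total, as CPM. Genes averaging 1 CPM or more were tested as log2(CPM + 1) with limma 3.58.1 in R 4.3.3 (trend and robust), with Benjamini-Hochberg adjustment over all tested genes and a threshold of 0.05. The comparison was run with 8 libraries and without AP_OCA replicate 2, and the steps were tested on simulated data. Fold changes on this scale understate the change of low genes. Total depth is unknown, so no count test was run.

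The members and lists were chosen with earlier results of these data known. Values in every library are given for members averaging 1 CPM or more over 7 libraries, which all 33 did; of the pathway lists, the type I and gamma receptor chains, genes that passed and the 2 most abundant are named, and 1 further gene of that rule is not reported here. Alternatives changed the scaling, pseudocount (0.1 or 5 CPM), filter, trend, weights, block and libraries; removing a trend on length and GC content and the other fold margins were added after seeing the data.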

Additional observations from a re-analysis of the deposited data

Results flagged for a closer look

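In each group of 4 libraries, the gap between the most extreme library and its nearest neighbour was divided by the group's range for each of the 33 genes, and 2 of the 66 groups exceeded Dixon's critical value for 4 samples. Chance gives about 1 in 20 such groups. For Zbp1 in AP_OCA, replicate 2 lay far above the other libraries, with a ratio of 0.926. For Parp14 in AP, replicate 3 lay far below the others, with a ratio of 0.856.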

How the results depend on the processing

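With 8 libraries, no gene passed under any alternative except quality weights per library (1052 genes, 4 of them members: Irf1, Oas3, Ifi35 and Helz2) and the removal of AP_OCA replicate 2; leaving out 1 library gave 0 to 266 genes and 0 to 1 members. Irf1 reversed to -0.83 under quality weights, and leaving out 1 library moved it from -0.81 to 0.54. Oas3 reversed to 0.037 with a pseudocount of 5 CPM and to 0.32 with the length and GC trend removed, and leaving out 1 library moved it from -0.85 (without AP_OCA replicate 2) to 0.32 (without AP_OCA replicate 1). Without AP_OCA replicate 2, 266 genes passed, against 113 on the deposited log2 values, 156 with a pseudocount of 0.1 CPM, 14 without trend, 1675 with quality weights, 128 with the length and GC trend removed, and 0 with no filter on low values (limma; 3255 of 21426 at an unadjusted p under 0.05). Members passing were 1, against 0 with no filter, 0 without trend and the same 4 with quality weights. Leaving out a further library gave 7 (without AP replicate 3) to 973 genes (without AP_OCA replicate 1), and 0 (without any AP library) to 5 members (without AP_OCA replicate 1). With a replicate block 559 genes passed and Helz2 alone among the members. Same-numbered libraries correlated at -0.05, 0.05 and -0.07 in their deviations. Such correlations cannot show whether these libraries share an animal or preparation, which is not given in the sources used here. A 4-fold margin left 4 members above the others in AP_OCA replicate 2. The cause of these shifts was not tested. Read depth is unknown and limits the low genes.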
